A study of Homo sapiens with 40 samples.

Results

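The 78 mitochondrial ribosomal protein genes described here are the protein-coding genes whose GENCODE 44 symbol starts with MRPL or MRPS followed by a number, out of 58395 genes listed in the count table. All 78 were among the 28922 genes that were tested. Membership was set by name alone, though with earlier results of these data known. The 78 genes lie on 21 chromosomes. Of these, 51 encode proteins of the large subunit of the mitochondrial ribosome and 26 encode proteins of the small subunit. MRPS36 keeps its historical name but encodes a component of the 2-oxoglutarate dehydrogenase complex. By homology, 46 members have a counterpart in bacterial ribosomes and 31 are found in mitochondria only. MRPS30 and MRPS18A carry small-subunit names but sit in the large subunit.

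Mitochondria carry their own ribosome, which translates the few proteins encoded in mitochondrial DNA, all of them subunits of the respiratory chain complexes and ATP synthase. Its RNA parts are transcribed in the mitochondrion, whereas its proteins are encoded in the nucleus, made in the cytosol and imported. PARP1 is a nuclear enzyme that binds DNA breaks and attaches poly(ADP-ribose) chains to itself and to other proteins.

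RNA was sequenced from HEK293A cells, an adherent human embryonic kidney line, as wild type (WT) or as 1 clone with a CRISPR/Cas9 knockout of PARP1 (PARP1-KO, which a label field also calls a knockdown). Each genotype was left untreated or exposed for 5 to 5.5 h to 0.1% DMSO, to topotecan (Tpc, a topoisomerase 1 poison) with 0.1% DMSO, to 5 μM OL9-119 in 0.1% DMSO, or to Tpc together with 5 μM OL9-119. The paper lists DMSO as present in the combination too, without its percentage. OL9-119 is an inhibitor of TDP1, an enzyme that removes trapped topoisomerase 1 from DNA. The 10 groups had 4 libraries each, 40 in all. Tpc was given at 100 nM to WT and at 50 nM to PARP1-KO cells, so under Tpc the genotype and the dose cannot be told apart. Because the knockout is a single clone, the loss of PARP1 and other properties of the clone cannot be told apart. The labels call the 4 libraries of a group biological replicates and the methods call them technical, so p-values may measure technical spread only. In bulk RNA, less RNA per cell and fewer cells expressing a gene cannot be told apart.

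Total counts ranged from 3455043 to 20379777 per library. PARP1 was at 737 to 887 CPM (counts after scaling by library size) in the 20 WT libraries and at 30.4 to 46.6 CPM in the 20 PARP1-KO libraries. Of the HEK293 markers, NEFL was high in untreated cells of both genotypes (304.7 ± 39.6 CPM in WT and 272.4 ± 10.3 CPM in PARP1-KO, SD, n = 4), whereas INA was at 1.75 ± 1.11 and 0.101 ± 0.0836 CPM. The blood and liver markers PTPRC, CD3E, HBB and ALB reached at most 0.424 CPM in any untreated library. COL1A1, a fibroblast collagen gene, was at 26.8 ± 4.59 CPM in untreated WT and 13.95 ± 3.46 CPM in untreated PARP1-KO cells, and the endothelial gene PECAM1 was at 1.34 ± 0.647 and 0.807 ± 0.362 CPM. Their part in the results was not tested.

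Together, the 78 genes took between 0.384% and 0.585% of all counts in a library. In WT cells the share was 0.48% ± 0.0518 untreated, 0.475% ± 0.0792 with DMSO, 0.459% ± 0.0366 with Tpc, 0.433% ± 0.0381 under OL9-119 and 0.441% ± 0.017 under the combination (SD, n = 4). In PARP1-KO cells it stayed between 0.384% and 0.435% in all 20 libraries. Untreated WT replicate 1 (0.546%) and DMSO-treated WT replicate 3 (0.585%) had the highest shares of these genes. The same libraries had the highest shares of the 87 cytosolic ribosomal protein genes, 8.72% and 9.46%, against 7.72% in the next highest WT library. Counts of called members that rest on these libraries are also given without them, and the values of single members are from all libraries unless it is said otherwise.

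**Figure D1:**
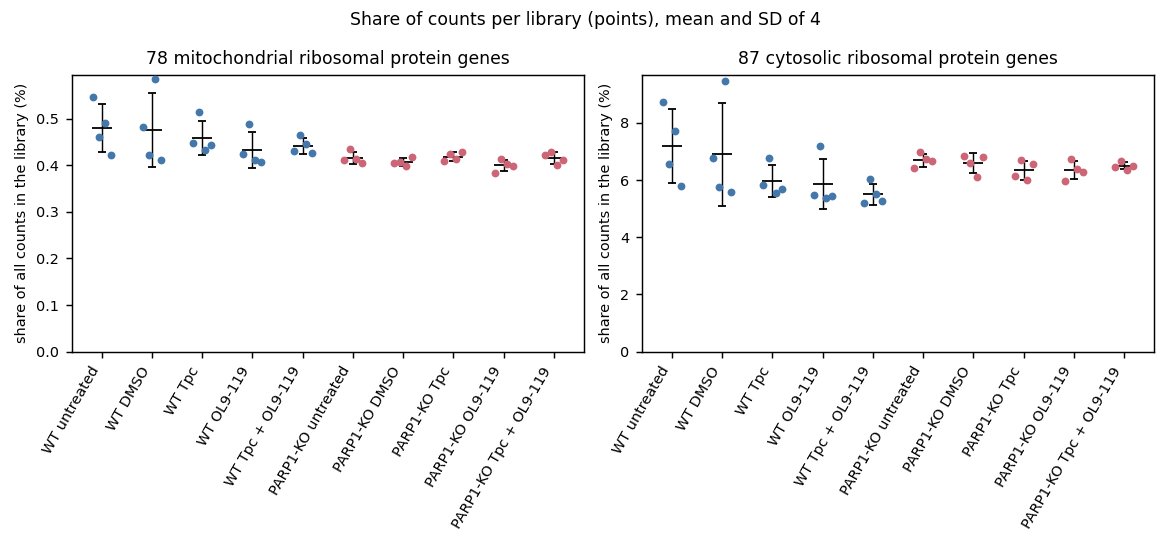
Share of all counts in each library taken by the 78 mitochondrial (left) and the 87 cytosolic (right) ribosomal protein genes, in percent on axes that start at 0, for 5 WT groups (blue) and 5 PARP1-KO groups (red). Points are libraries, and the black bars give the mean and SD of 4. The highest points of both panels are DMSO-treated WT replicate 3 (0.585% and 9.46%) and untreated WT replicate 1 (0.546% and 8.72%).

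The promoters of 69 of the 78 genes could be read from the RefSeq table (GRCh38.p14), each as 250 bases before and 50 after the start of the gene. Short motifs of regulators known to act on nuclear genes for mitochondrial proteins were searched on both strands. These were a palindromic motif of nuclear respiratory factor 1, CCGGAAGT (the ETS type, which includes GABP) and AAGATGGC (the YY1 type). AAGATGGC was in 28.986% of the 69 windows, against 2.888% of all 35116 windows in the table. CCGGAAGT was in 15.942% against 4.138%, and the nuclear respiratory factor 1 motif in 1.449% against 1.239%. At least 1 motif was in 27 of the 69 windows (39.13%) and in 7.786% of all windows. A match is a run of letters, not a bound site.

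Windows are printed for MRPL16, MRPL49 and MRPS16, which were lower in PARP1-KO cells under all 5 treatments, and for MRPS30, the member that was higher in more than 1 genotype comparison, so that the members that moved can be set against their motifs. MRPL15, also lower under all 5 treatments, is named only. Capitals mark a motif match, and each sequence runs 5′ to 3′ along the strand of the gene.
MRPL16 (chr11:59810729-59811028, minus strand, with the ETS-type letters on the opposite strand from base -7): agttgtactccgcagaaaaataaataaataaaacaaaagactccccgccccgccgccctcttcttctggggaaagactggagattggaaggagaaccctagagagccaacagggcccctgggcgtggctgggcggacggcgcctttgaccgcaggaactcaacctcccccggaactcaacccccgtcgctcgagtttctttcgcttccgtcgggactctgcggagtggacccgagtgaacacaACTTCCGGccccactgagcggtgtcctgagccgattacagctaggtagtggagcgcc
MRPL49 (chr11:65121933-65122232, plus strand, no match): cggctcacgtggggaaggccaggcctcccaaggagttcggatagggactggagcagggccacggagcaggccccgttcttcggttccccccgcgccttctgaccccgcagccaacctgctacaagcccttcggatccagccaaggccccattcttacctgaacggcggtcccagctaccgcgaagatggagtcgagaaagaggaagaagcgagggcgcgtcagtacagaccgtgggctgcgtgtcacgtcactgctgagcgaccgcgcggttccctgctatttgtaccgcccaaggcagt
MRPS16 (chr10:73252595-73252894, minus strand, no match): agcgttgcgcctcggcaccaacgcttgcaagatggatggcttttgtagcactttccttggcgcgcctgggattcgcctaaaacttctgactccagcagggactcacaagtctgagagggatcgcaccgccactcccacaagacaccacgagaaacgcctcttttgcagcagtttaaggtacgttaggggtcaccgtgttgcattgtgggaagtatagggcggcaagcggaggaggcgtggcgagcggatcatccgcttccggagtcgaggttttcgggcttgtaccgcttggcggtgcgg
MRPS30 (chr5:44808697-44808996, plus strand, with the YY1-type letters from base 14 after the start): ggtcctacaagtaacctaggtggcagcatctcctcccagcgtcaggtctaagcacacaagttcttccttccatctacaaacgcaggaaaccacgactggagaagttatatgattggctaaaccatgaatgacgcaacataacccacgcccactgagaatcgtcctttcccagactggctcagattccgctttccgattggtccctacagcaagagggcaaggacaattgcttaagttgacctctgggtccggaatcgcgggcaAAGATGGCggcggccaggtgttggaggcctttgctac
Of the 21 windows of members that were lower in PARP1-KO cells under at least 1 treatment, 14.286% held AAGATGGC and 23.81% held CCGGAAGT, against 35.417% and 12.5% of the 48 windows of the other members. These shares describe the windows and were not tested.

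Levels of different genes were compared as CPM per kb of exon length. In untreated WT cells the median member was at 22.4 CPM per kb, with quartiles at 11.6 and 36.9. The highest levels were those of MRPL51 (132.1 ± 35.4 CPM per kb), a mitochondria-specific protein of the large subunit, and MRPS34 (124.8 ± 23.5), a mitochondria-specific protein of the small subunit, which differed by less than their SD (n = 4). The lowest were MRPS24 (0.161 ± 0.225) and MRPL38 (0.459 ± 0.337). Exons of both overlap another coding gene on the same strand, which for MRPS24 is the read-through gene URGCP-MRPS24. Exons of 30 members overlap a gene on the opposite strand, 13 overlap another coding gene on their own strand and 36 have pseudogene copies, found by name, where reads could be split or lost. MRPS24 had 177 counts over all 40 libraries, so changes of this gene were not detectable at this depth.

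The comparison of PARP1-KO with WT cells asks how the level of each gene differs with PARP1 absent. In untreated cells 18 of the 78 members were lower in PARP1-KO cells, against 5.74% of all genes tested, and 1 was higher, against 5.97% of all genes. With DMSO, 20 were lower (5.75% of all genes) and 1 was higher (6.67%). Protein-coding genes with a mean of at least 50 counts, which 73 of the members reach, were called more often than all genes. They are named expressed protein-coding genes below, a background chosen after seeing the data. Of 11425 such genes that are no members, 13.4% were lower and 13.4% higher untreated, and 13.5% and 14.5% with DMSO, against 23.1% and 25.6% of the 78 members lower. With only the 8 libraries compared in the fit, edgeR called 13 members untreated in place of 19, and 8 with DMSO in place of 21. Here and below, the shares of all genes called in fits of only the libraries compared are not given. A gene was called where the adjusted p of edgeR's quasi-likelihood F-test was below 0.01. All PARP1-KO libraries lay below all WT libraries for 24 members untreated (8.37% of all genes) and for 19 with DMSO (7.76%), and above them for 7 (11.3%) and 3 (12.3%). The median log2 fold change of the members was -0.23 untreated and -0.28 with DMSO, while the median of all genes tested was 0.17 and 0.19. With a stricter filter on low counts the all-gene median was 0.03 and 0.04, and that of the members -0.25 and -0.28.

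MRPL23, which encodes the large-subunit protein of the L23 type that lies at the polypeptide exit tunnel, had the lowest log2 fold change among the called members. In untreated WT cells it was at 37.6, 26.4, 33.9 and 25.6 CPM in replicates 1 to 4, and in untreated PARP1-KO cells at 5.49, 10.2, 12.1 and 9.93 CPM. Every PARP1-KO library was below every WT library. The log2 fold change was -1.69 ± 0.24 (SE, edgeR adjusted p = 2.73e-07). With DMSO, MRPL23 was at 37.2, 22.7, 47.6 and 21.8 CPM in WT and at 10.9, 11.7, 6.75 and 14.1 CPM in PARP1-KO cells, again with no overlap (-1.57 ± 0.24, edgeR adjusted p = 1.07e-06). Its exons overlap the antisense gene MRPL23-AS1, and the strand setting of the counting is not given in the sources used here.

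MRPL11, part of the stalk base that contacts translation factors, was at 155.2, 100.2, 142.3 and 80.7 CPM in untreated WT cells and at 44.7, 64.4, 53.5 and 58.3 CPM in untreated PARP1-KO cells. The groups did not overlap. The log2 fold change was -1.11 ± 0.17, edgeR adjusted p = 5.42e-07, and with DMSO -1.14 ± 0.17, edgeR adjusted p = 3.05e-07. MRPL53, a mitochondria-specific protein, was at 8.81, 4.95, 15.4 and 3.87 CPM in untreated WT cells and at 1.57, 3.06, 3.63 and 2.34 CPM in untreated PARP1-KO cells (-1.62 ± 0.46, edgeR adjusted p = 0.00847). Here the lowest WT and the highest PARP1-KO library lay close together. With DMSO MRPL53 did not pass (-0.77), and its exons overlap CCDC142 on the same strand.

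MRPL27, MRPS16, MRPL55, MRPL16, MRPL28, MRPL20, MRPL33, MRPL43, MRPL48, MRPS18C, MRPL15 and MRPL49 were the other members lower both untreated and with DMSO, which makes 14 with MRPL23 and MRPL11, in separate libraries. MRPL27, of the bacterial L27 type near the peptidyl transferase centre, was at 70.5 ± 21.3 CPM in untreated WT and 34.6 ± 2.01 CPM in untreated PARP1-KO cells (SD, n = 4), with log2 fold changes of -1.03 untreated and -0.88 with DMSO. MRPL53, MRPS6, MRPS7 and MRPL51 were lower in untreated cells only. MRPL1, MRPL41, MRPS9, MRPL35, MRPS11 and MRPL30 were lower with DMSO only. Whether these differences are unequal between treatments was not tested. MRPL1 was at 45.6, 26.4, 80.9 and 33.97 CPM in WT and 21.5, 24.1, 26.3 and 23.01 CPM in PARP1-KO cells with DMSO (-0.98 ± 0.20, edgeR adjusted p = 0.000165), and its WT value in replicate 3 was the highest.

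**Figure D2:**
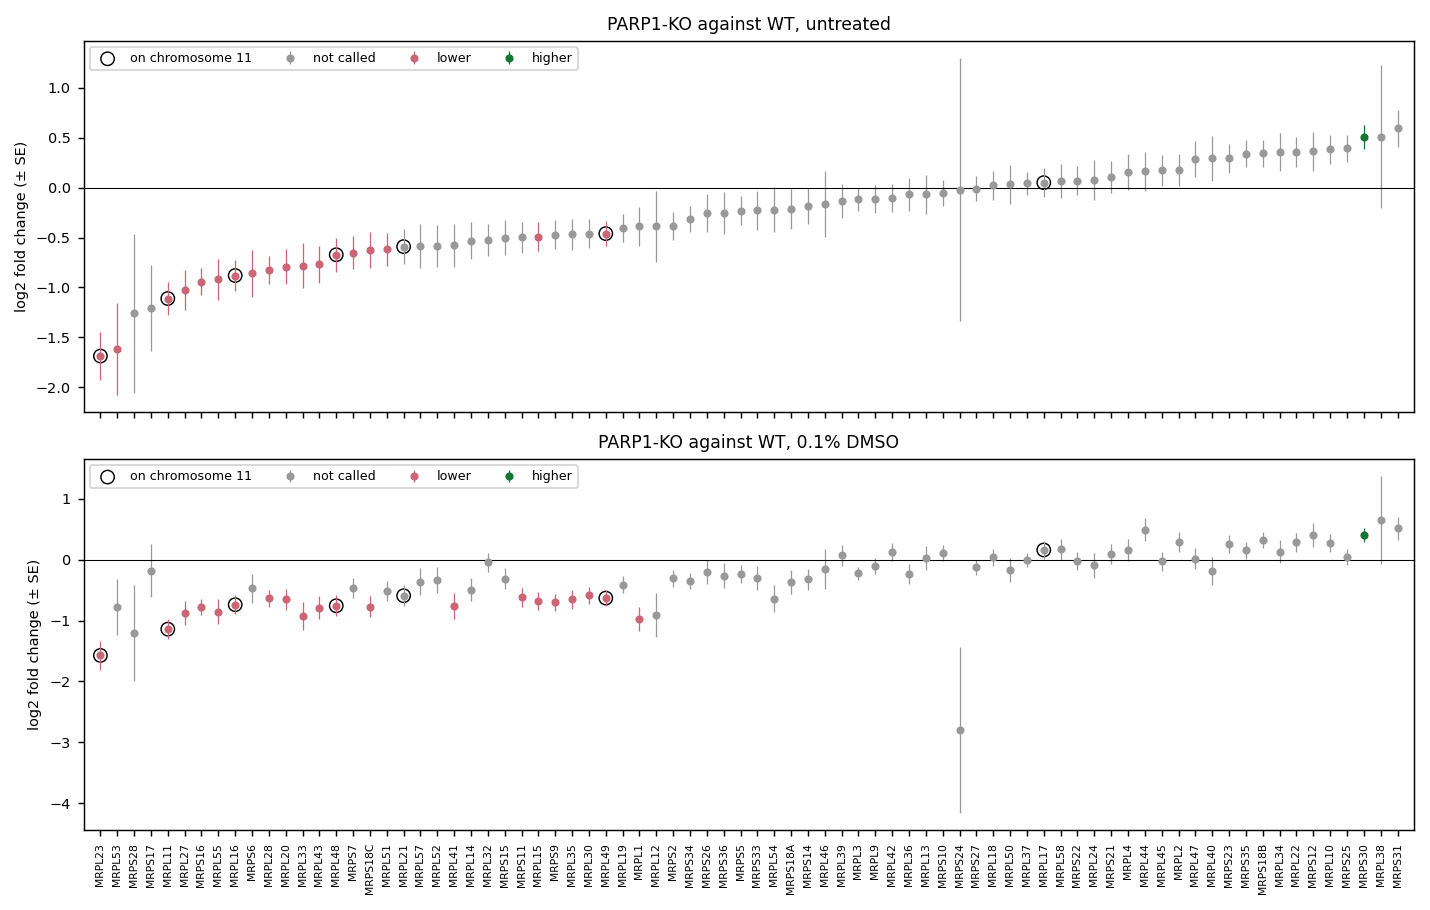
Log2 fold change (± SE) of PARP1-KO against WT for each of the 78 members, untreated (top) and with 0.1% DMSO (bottom), in the order of the untreated values. Red points are called lower (18 and 20), green points higher (1 and 1), grey points not called, and circles mark the 7 members on chromosome 11, of which 5 were lower in each panel.

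MRPL51 and MRPS16 show how the WT libraries spread. MRPL51 was at 250.2, 164.7, 184.3 and 134.02 CPM in untreated WT cells and at 108.1, 130.1, 119.2 and 120.3 CPM in untreated PARP1-KO cells. MRPS16, a small-subunit protein of the bacterial S16 type, was at 148.3, 116.5, 181.7 and 101.04 CPM in untreated WT cells and at 72.1, 75.3, 70.6 and 67.1 CPM in PARP1-KO cells (-0.94 ± 0.14, edgeR adjusted p = 2.61e-07). In neither gene did the groups overlap, and the PARP1-KO libraries lay closer together than the WT libraries.

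Without untreated WT replicate 1, 10 members were called in place of 19, of which 9 were lower, and the median was -0.15. The same fit called 4.62% of all genes and 10.8% of the expressed protein-coding genes lower, so that the members, at 11.5%, were near the latter. MRPL23, MRPL11, MRPL27, MRPS16, MRPL55, MRPL16, MRPL28, MRPL20 and MRPL43 kept the call. The other 9 did not pass, at log2 fold changes of -1.58 for MRPL53, -0.67 for MRPL33, -0.58 for MRPS18C, -0.55 for MRPS7, -0.52 for MRPL48, -0.43 for MRPL51, -0.42 for MRPS6, -0.42 for MRPL15 and -0.38 for MRPL49. Counts near 10 were also reached without some single untreated PARP1-KO libraries, as listed at the end. The fall in calls was thus not particular to this WT library.

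Without DMSO-treated WT replicate 3, 13 were called in place of 21, of which 12 were lower (MRPL19 among them only here), and 15.4% of the members stood against 4.94% of all genes and 11.7% of the expressed protein-coding genes. The median was -0.13. MRPL23 was at -1.33, edgeR adjusted p = 2.82e-05, and MRPL11 at -0.98, edgeR adjusted p = 5.62e-06. The 9 members that lost the call were at -0.67 (MRPL27), -0.58 (MRPL1), -0.55 (MRPL43), -0.52 (MRPL41), -0.50 (MRPL48), -0.47 (MRPL28), -0.46 (MRPS11), -0.44 (MRPL20) and -0.41 (MRPL33). Of the 14 members lower both untreated and with DMSO, 5 kept both calls without these libraries, which were MRPL11, MRPL16, MRPL23, MRPL55 and MRPS16.

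MRPS30, a mitochondria-specific protein, was higher in PARP1-KO cells. It was at 76.02, 79.9, 92.5 and 94.05 CPM in untreated WT cells and at 137.1, 118.3, 118.7 and 112.6 CPM in untreated PARP1-KO cells. The groups did not overlap, and the log2 fold change was 0.51 ± 0.12, edgeR adjusted p = 0.000981. With DMSO it was at 97.1, 88.5, 100.3 and 93.5 CPM in WT and 105.2, 117.8, 157.1 and 123.2 CPM in PARP1-KO cells (0.41 ± 0.12, edgeR adjusted p = 0.00874), where the lowest PARP1-KO library lay just above the highest WT library. With Tpc, OL9-119 and the combination MRPS30 was at 0.26, 0.33 and -0.08 on the log2 scale and did not pass.

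The classes of members gave different counts. Of the 46 members with a bacterial counterpart, 13 were lower and 0 higher in untreated cells (edgeR, median -0.43, 26 at an unadjusted p below 0.05), and 16 lower and 0 higher with DMSO (median -0.44). Over all members, 51.3% untreated and 44.9% with DMSO had an unadjusted p below 0.05 (edgeR). This was near or under the 50.5% and 52% of the expressed protein-coding genes, while 30.5% and 32.5% of all genes had one. Of the 31 mitochondria-specific members, 5 were lower and 1 higher untreated (median -0.11), and 4 lower and 1 higher with DMSO (median -0.15). By subunit, 14 of 51 large-subunit and 4 of 26 small-subunit members were lower untreated, and 16 and 4 with DMSO. Of all genes, 5.74% were lower and 5.97% higher untreated, and 5.75% and 6.67% with DMSO. Of the expressed protein-coding genes, 13.4% and 13.5% were lower. Of the members on chromosome 11, MRPL48 and MRPL49 are mitochondria-specific and the others have a bacterial counterpart. Without the WT libraries named above, 8 of 46 and 1 of 31 were lower untreated (medians -0.41 and 0.00), and 11 and 1 with DMSO (medians -0.26 and 0.05). By subunit this was 8 of 51 and 1 of 26 untreated, and 9 and 3 with DMSO. The same fits called 4.62% and 4.94% of all genes lower, and more of the expressed protein-coding genes, as given above. The difference between classes was not tested, since the members of a class are not replicates. Of the 24 members lower in at least 1 genotype comparison, 12 overlap an antisense gene, 5 a coding gene on the same strand and 12 have pseudogene copies, while 5 have none of these.

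Several members with roles beyond the core of the ribosome did not pass. MRPL12, also known to bind the mitochondrial RNA polymerase, was at -0.39 untreated and -0.90 with DMSO on the log2 scale, from 10.5 ± 4.24 CPM in untreated WT cells (SD, n = 4). MRPL58, a peptidyl-tRNA hydrolase built into the large subunit, was at 0.06 and 0.17. MRPL45, which ties the ribosome to the inner membrane, was at 0.17 and -0.03. None of the 3 passed. MRPL3 was at -0.12 and -0.23, MRPL44 at 0.16 and 0.49 and MRPS22 at 0.07 and -0.02. Of the 3 forms of S18, MRPS18C was lower (-0.62 and -0.77), while MRPS18A (-0.21 and -0.37) and MRPS18B (0.34 and 0.32) did not pass. MRPS36 was at -0.25 and -0.26 and did not pass.

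In the fit of all 40 libraries, fewer members were called between the genotypes in drug-treated cells. With Tpc, 9 were lower (4.34% of all genes) and 1 was higher (4.17%). With OL9-119, 7 were lower (4.83%) and 1 was higher (4.94%). With the combination, 4 were lower (3.71%) and 3 were higher (3.56%). Of the expressed protein-coding genes, 10.2% with Tpc, 11.5% with OL9-119 and 8.62% with the combination were lower, against 11.5%, 8.97% and 5.13% of the members, so the counts of lower members were near or under this background in all 3. With only the 8 libraries compared in the fit, edgeR called 15, 16 and 9 members in either direction in place of 10, 8 and 7. In such fits the counts with Tpc and with OL9-119 were above those given earlier for untreated and DMSO-treated cells. The smaller number in drug-treated cells was thus not kept. The medians were -0.06, -0.04 and -0.07 against 0.07, 0.04 and 0.14 over all genes. The sign of the last 2 rested on 1 library each, since without WT replicate 2 of the same treatment the median was 0.04 with OL9-119 and 0.0048 with the combination. MRPS35, a mitochondria-specific small-subunit protein, was higher with Tpc (0.54 ± 0.13, edgeR adjusted p = 0.00272, groups overlapping). MRPL13, of the bacterial L13 type, was higher with OL9-119, at 32.4, 43.0, 36.1 and 34.6 CPM in WT and 72.2, 59.4, 87.8 and 53.3 CPM in PARP1-KO cells with no overlap (0.90 ± 0.20, edgeR adjusted p = 0.000613). MRPS12, which lies at the decoding centre, was higher with the combination (0.90 ± 0.20, edgeR adjusted p = 0.000861), as were MRPL47 (0.64 ± 0.18, edgeR adjusted p = 0.00977) and MRPS21 (0.63 ± 0.16, edgeR adjusted p = 0.00504).

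In total 24 members were lower and 6 higher in at least 1 of the 5 genotype comparisons, and 48 of 78 were called in none of the comparisons made. MRPL15, MRPL16, MRPL49 and MRPS16 were lower under all 5 treatments, and MRPL23, MRPL28 and MRPL55 under 4 of 5. For MRPL16 the log2 fold changes were -0.88 untreated, -0.74 with DMSO, -0.92 with Tpc, -0.78 under OL9-119 and -0.67 under the combination. For MRPS16 they were, in this order, -0.94, -0.78, -0.78, -0.56 and -0.61. The values were -0.49, -0.68, -0.62, -0.54 and -0.56 for MRPL15 and -0.46, -0.63, -0.58, -0.45 and -0.55 for MRPL49. Without untreated WT replicate 1, MRPL15 (-0.42, edgeR adjusted p = 0.0492) and MRPL49 (-0.38, edgeR adjusted p = 0.0464) did not pass in untreated cells.

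These 4 genes encode proteins of both subunits. MRPL16 (chromosome 11, 59806140 to 59810778, hg38) and MRPL15 (chromosome 8, 54135241 to 54148514) encode large-subunit proteins with bacterial counterparts. MRPL49 (chromosome 11, 65122183 to 65127371) encodes a mitochondria-specific protein of the large subunit, and its exons overlap SYVN1 on the opposite strand. MRPS16 lies on chromosome 10 (73248843 to 73252693), with exons that overlap DNAJC9-AS1. In the combination MRPL16 was at 43.6, 61.4, 61.1 and 46.7 CPM in WT and 32.7, 40.9, 31.95 and 28.2 CPM in PARP1-KO cells. MRPS16 was at 133.5, 116.9, 105.96 and 111.2 CPM in WT and 77.6, 77.1, 75.5 and 76.8 CPM in PARP1-KO cells. In neither gene did the groups overlap.

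**Figure D3:**
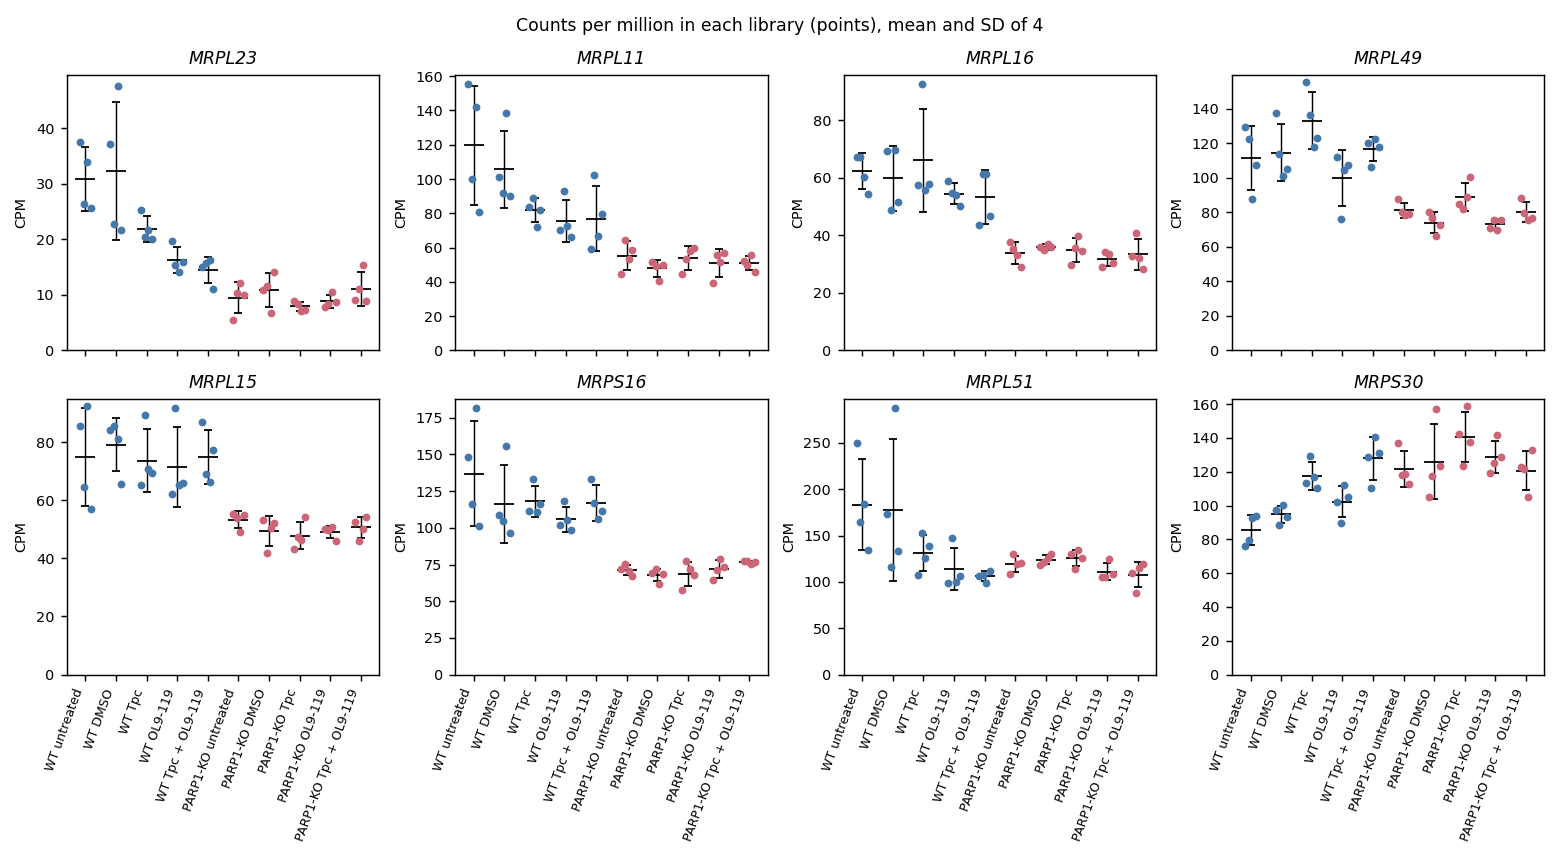
CPM in each library (points) with the mean and SD of 4 (bars) for 8 members, on axes that start at 0, in 5 WT groups (blue) and 5 PARP1-KO groups (red). MRPL15, MRPL16, MRPL49 and MRPS16 were lower in PARP1-KO cells under all 5 treatments, MRPL23 and MRPL51 also fell in WT cells with the combination, and MRPS30 was higher in untreated PARP1-KO than in untreated WT cells.

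The members on chromosome 11 were read apart. This chromosome was chosen with earlier results of these data known, so lower values there are no independent support. Of the 7 members on chromosome 11, 5 were lower untreated (MRPL11, MRPL16, MRPL23, MRPL48 and MRPL49, median -0.67) and the same 5 with DMSO (median -0.74), while 13 and 15 of the 71 on other chromosomes were lower (medians -0.21 and -0.23). MRPL17 (0.05 untreated) and MRPL21 (-0.59) did not pass. MRPL23 and MRPL17 start at 1.9 and 6.7 Mb, far from the others, which start between 59.8 and 73.8 Mb. Over the 654 other protein-coding genes on chromosome 11 with a mean of at least 50 counts, the median was -0.52 untreated and -0.50 with DMSO, and 40.8% and 40.8% were lower. Over 10771 such genes elsewhere, the median was 0.03 and 0.04, and 11.7% and 11.8% were lower. The median on chromosome 11 was -0.52 with Tpc, -0.50 with OL9-119 and -0.44 with the combination. Without the WT libraries named above, 3 of the 7 members were lower untreated and 4 with DMSO (medians -0.53 and -0.66), against 34.6% and 39% of the other genes on chromosome 11. Of the 71 members elsewhere, 6 and 8 were then lower, against 9.35% and 10% of the other genes. DNA copy number was not analysed here, and its part in these values was not tested.

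Neighbours of each member were read in the same way, as the protein-coding genes within 1 Mb with a mean of at least 50 counts. All 18 members lower in untreated cells had neighbours with a median below 0, against 28 of 59 other members with neighbours. With DMSO this held for all 20 lower members and for 27 of 57 others. Among the other protein-coding genes, the neighbours were below 0 for 77.4% and 76.1% of those that were lower and for 45.1% and 44.2% of the rest, so the relation was not particular to the members. Without the WT libraries named above, it held for 9 of 9 lower and 35 of 68 other members untreated, and for 12 of 12 and 32 of 65 with DMSO. In windows chosen after seeing the data, 17 of 18 and 19 of 20 lower members had neighbours below 0 at 0.5 Mb, and 17 and 20 at 2 Mb. Without genes that overlap the member, 18 of 18 and 20 of 20 did.

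MRPL11 (chromosome 11, 66435075 to 66466738) had 53 neighbours with a median of -0.81 untreated, of which 35 were lower. MRPL49, itself at -0.46, had 63 with a median of -0.76, of which 40 were lower. MRPL23 (1947278 to 1984522), at -1.69, had 12 with a median of -0.57. MRPL23 thus stood below its neighbours and MRPL49 above. MRPL15, at -0.49, had 4 neighbours with a median of -0.06. MRPL17 had 19 with a median of -0.36, and MRPS30 had none in the window.

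**Figure D4:**
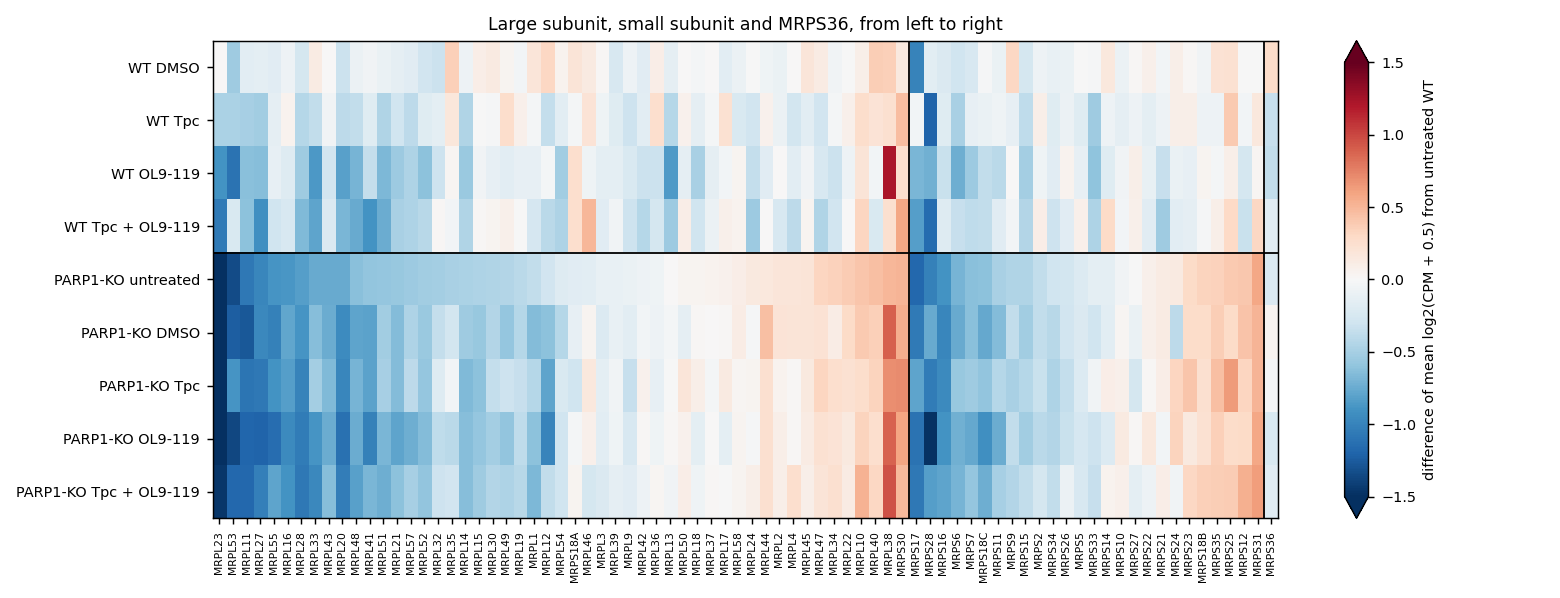
Difference of the mean log2(CPM + 0.5) of each group from untreated WT cells for the 78 members, by subunit and in the order of the untreated PARP1-KO value, with 9 groups as rows (4 WT above the line, 5 PARP1-KO below) and colours from blue (lower) to red (higher), cut at 1.5. MRPL23, MRPL16 and MRPS16 are blue in all 5 PARP1-KO rows.

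The treatment of WT cells asks how the members respond to Tpc, OL9-119 and the combination, each set against the same untreated libraries. Tpc and OL9-119 were given with 0.1% DMSO in both genotypes, and the combination also held DMSO. A value against untreated cells thus holds drug and solvent together. DMSO alone changed 0 of 78 members (edgeR, 0% of all genes, 4 members and 10.8% of all genes at an unadjusted p below 0.05, and 0 members and 0.0311% of all genes by DESeq2). Tpc changed 0 members (edgeR, 0.304% of all genes lower and 0.553% higher), with 17 members at an unadjusted p below 0.05 (21.8%, against 15.6% of all genes and 24.9% of the expressed protein-coding genes) and 1 called by DESeq2 (1.94% of all genes). The median log2 fold change with Tpc was -0.13, with 59 of 78 below 0. MRPS30 was at 0.46 ± 0.12, edgeR adjusted p = 0.0223 with Tpc and MRPL11 at -0.55 ± 0.16, edgeR adjusted p = 0.0605.

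With OL9-119, 4 members were lower in WT cells (0.833% of all genes and 2.03% of the expressed protein-coding genes) and 0 higher (edgeR, 0.449% of all genes). An unadjusted p below 0.05 was found for 27 members (34.6%), 16.1% of all genes and 25.7% of the expressed protein-coding genes, and DESeq2 called 9 members and 2.57% of all genes. With only the 8 libraries compared in the fit edgeR called 0 members, and against DMSO-treated in place of untreated cells 2. The median was -0.21, with 66 of 78 below 0. MRPL13 was at 83.3, 51.9, 100.9 and 43.7 CPM untreated and at 32.4, 43.0, 36.1 and 34.6 CPM with OL9-119 (-0.94 ± 0.20, edgeR adjusted p = 0.0021). MRPL20, of the bacterial L20 type that binds the large ribosomal RNA, went from 87.1, 77.3, 114.9 and 63.3 CPM to 53.8, 51.5, 37.9 and 47.7 CPM (-0.84 ± 0.17, edgeR adjusted p = 0.00143). In both genes the treated libraries were below every untreated one. MRPL48 (-0.74 ± 0.17, edgeR adjusted p = 0.0061) did not overlap between the groups either, while MRPL51 (-0.69 ± 0.16, edgeR adjusted p = 0.00653) did. Exons of MRPL13, MRPL20 and MRPL51 overlap MTBP, MRPL20-AS1 and NCAPD2 on the opposite strand.

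With Tpc and OL9-119 together 8 members fell (2% of all genes lower) and 1 rose (2.07% higher), while 4.81% of the expressed protein-coding genes fell. With only the 8 libraries compared in the fit edgeR called 0 members, and against DMSO-treated cells 5, in place of 9. Those that fell were MRPL23 (-1.08), MRPL27 (-0.94), MRPL41 (-0.84), MRPL48 (-0.80), MRPL51 (-0.79), MRPL20 (-0.68), MRPL28 (-0.67) and MRPL11 (-0.64), all of them genes of the large subunit. MRPL23 went from 37.6, 26.4, 33.9 and 25.6 CPM to 14.98, 15.8, 16.2 and 10.98 CPM (edgeR adjusted p = 0.00182). MRPL28, of the bacterial L28 type, went from 167.7, 145.6, 161.3 and 120.7 CPM to 97.2, 88.2, 99.5 and 89.2 CPM (edgeR adjusted p = 0.000871). In neither gene did the groups overlap. MRPS30 rose to 128.96, 110.4, 140.8 and 131.2 CPM (0.58 ± 0.12, edgeR adjusted p = 0.000602), above every untreated library. MRPL20, MRPL48 and MRPL51 fell both with OL9-119 and with the combination, which share the untreated libraries. Exons of MRPL28 overlap the coding gene PGAP6 on the same strand, and those of MRPL11 overlap PELI3 on the opposite strand.

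Without untreated WT replicate 1, MRPL20 (-0.84, edgeR adjusted p = 0.00499) was the 1 member called with OL9-119, with 0.388% of all genes lower. Of the 9 called with the combination, MRPL28 (-0.62, edgeR adjusted p = 0.00624) and MRPS30 (0.51, edgeR adjusted p = 0.00644) kept the call, with 1.25% of all genes lower. The 1 member lower in each made up 1.28%, against 0.937% (OL9-119) and 2.98% (combination) of the expressed protein-coding genes. MRPL23 was then at -0.98, edgeR adjusted p = 0.0127. The medians without this library were -0.06 with Tpc, -0.16 with OL9-119 and -0.19 with the combination.

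Genes of other families were read in the same comparisons. Of 82 cytosolic ribosomal protein genes tested, 8 fell with OL9-119 and 31 with the combination in WT cells (medians -0.40 and -0.49). Of 38 subunit genes of respiratory complex I (the NDUF genes), 5 and 12 fell (medians -0.52 and -0.52). Of all genes, 0.833% and 2% fell. Of the expressed protein-coding genes, 2.03% and 4.81% fell (medians 0.006 and 0.0009). The medians of the mitochondrial ribosomal protein genes, -0.21 and -0.24, were nearer to 0. Between untreated genotypes, 11 of the cytosolic ribosomal protein genes and 12 of the complex I genes were lower in PARP1-KO cells (medians -0.06 and -0.36). This stood against 5.74% of all genes and 13.4% of the expressed protein-coding genes. Without untreated WT replicate 1, 2 cytosolic ribosomal protein genes were lower with OL9-119 and 11 with the combination in WT cells (medians -0.28 and -0.39), and 1 and 4 complex I genes (medians -0.36 and -0.39). Between untreated genotypes, 4 cytosolic ribosomal protein genes (median 0.03) and 10 complex I genes (-0.22) were then lower. Of all genes, 0.388% with OL9-119, 1.25% with the combination and 4.62% between untreated genotypes were lower in these fits.

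In PARP1-KO cells edgeR called 0 members after any treatment against untreated cells, as did DESeq2. For DMSO, Tpc, OL9-119 and the combination in turn, edgeR called 0%, 0.0138%, 0.00346% and 0% of all genes, and 0, 2, 1 and 0 members had an unadjusted p below 0.05, as did 1.86%, 5.92%, 3.22% and 4.29% of all genes. The medians were -0.02, -0.01, -0.10 and -0.02. MRPL23, at -1.08 with the combination in WT, was at 0.20 ± 0.24 in PARP1-KO cells. Adding OL9-119 to Tpc changed 0 members by edgeR in WT (0.18% of all genes) and 0 in PARP1-KO cells (0%), and 0 by DESeq2 in each. An unadjusted p below 0.05 (edgeR) was found for 7 members in WT (10.8% of all genes) and 1 in PARP1-KO cells (4.1%).

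The difference between the genotypes' responses was tested itself. By edgeR, 0 members passed for Tpc, OL9-119 or the combination (0.1%, 0.0657% and 0.27% of all genes), with 5, 9 and 11 members at an unadjusted p below 0.05 (7.41%, 6.8% and 11.8% of all genes), and DESeq2 called 0 in each. The medians of the PARP1-KO response minus the WT response were 0.15, 0.17 and 0.21. For MRPL23 with the combination the difference was 1.28 ± 0.34, edgeR adjusted p = 0.0705, and for MRPS30 -0.59 ± 0.17, edgeR adjusted p = 0.097. The members called in WT and not in PARP1-KO cells were thus not shown to respond differently. In WT cells, 0 members differed between the combined response and the added single responses (edgeR, 0.00346% of all genes, and 0 by DESeq2). An unadjusted p below 0.05 (edgeR) was found for 11 members (14.1%), 9.38% of all genes and 8.81% of the expressed protein-coding genes. All these responses were taken against untreated cells, so each also holds its DMSO, which the paper lists for the combination too. The added single responses hold the solvent of both single treatments, and the combined response only its own. A difference between them can therefore also hold a solvent effect.

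**Figure D5:**
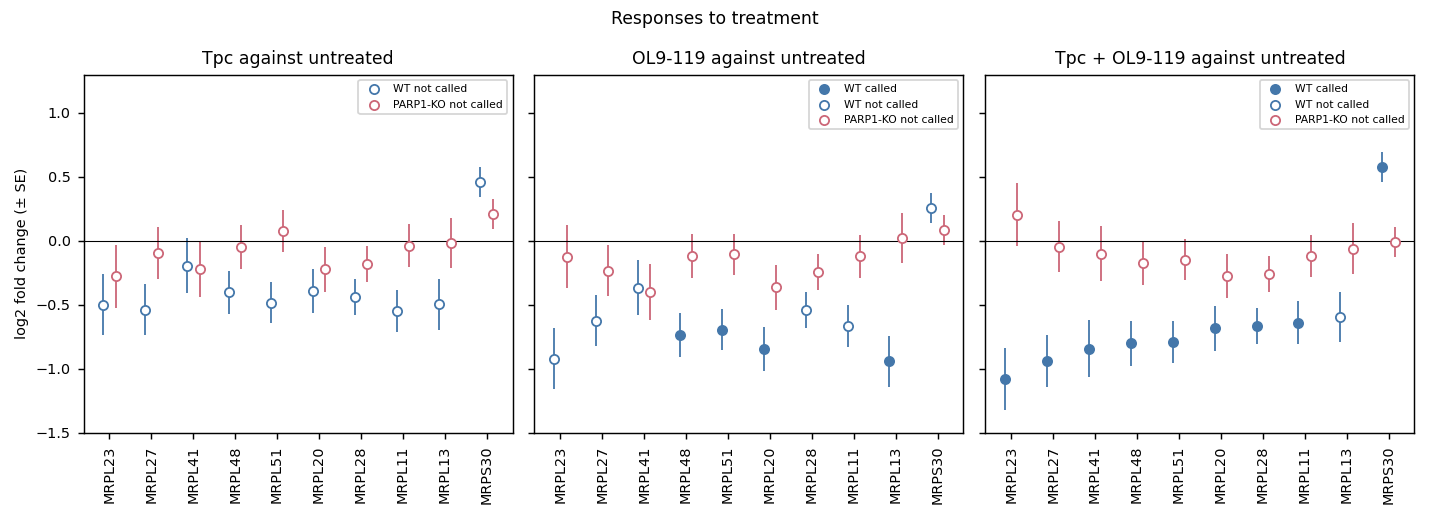
Log2 fold change (± SE) against untreated cells of the same genotype for the 10 members called in a treatment of WT cells, with Tpc, OL9-119 and the combination from left to right, WT in blue and PARP1-KO in red, and filled points for calls. With the combination the 8 members that fell in WT cells lie between -1.08 and -0.64, and MRPS30 rises to 0.58.

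Partners of these proteins were read from lists of other genes. Of 5 ribosome subunits with other symbols, CHCHD1, a small-subunit protein, was lower in untreated PARP1-KO cells, at 22.4 ± 4.202 against 53.5 ± 17.2 CPM in WT (SD, n = 4, log2 fold change -1.25 ± 0.20, edgeR adjusted p = 2.48e-06), and with DMSO (-0.99). DAP3, PTCD3, AURKAIP1 and GADD45GIP1 did not pass. Of 16 mitochondrial translation factors, 1 was lower and 1 higher untreated, and 1 lower and 2 higher with DMSO, near the shares of all genes (5.74% lower and 5.97% higher untreated, 5.75% and 6.67% with DMSO). The genes named here were chosen after their values were seen. MRRF, the ribosome recycling factor, was lower in both (-0.75 and -0.62). MTRF1, a release factor, was higher in both (0.74 and 0.71), and the related MTRF1L was higher with DMSO (0.90).

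Of 25 assembly factors, 1 was higher and 1 lower both untreated and with DMSO, also near or under these shares. GTPBP10, a GTPase of large-subunit maturation, was higher untreated (0.98 ± 0.17, edgeR adjusted p = 1.34e-05) and with DMSO (0.68), and it also rose with the combination in WT cells (1.00 ± 0.17, edgeR adjusted p = 4.86e-05). RCC1L was lower untreated (-0.83) and RPUSD4 with DMSO (-0.93). MT-RNR2, the RNA of the large subunit, was lower in PARP1-KO cells untreated (-0.59) and with DMSO (-0.58). MT-RNR1, the RNA of the small subunit, rose with the combination in WT cells (0.80 ± 0.19, edgeR adjusted p = 0.00322). The libraries were made from poly(A) RNA, so these values cover only the captured part of the ribosomal RNA. Transcripts of mitochondrial DNA took 4.73% to 8.25% of counts in WT and 3.73% to 4.97% in PARP1-KO libraries.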

How the data were processed

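RNA of 40 libraries was enriched for poly(A) and sequenced as pairs of 100 bp reads. Per the submitters' notes, STAR 2.7.8 and hg38 were used, with FastQC 0.11.9 and Picard 2.26.6, and the authors deposited raw counts per gene, which are the values used here. Which strand column was kept is not given in the sources used here, and the authors tested with DESeq2. Genes with a sum of at least 10 counts were scaled by TMM. All 40 libraries entered 1 fit with 10 groups in edgeR 4.0.16 (R 4.3.3, quasi-likelihood F-tests, legacy option on). P-values were adjusted by Benjamini and Hochberg over 28922 genes, with a threshold of 0.01. The SE is the size of the log2 fold change divided by the square root of F. GENCODE 44 matched 57754 genes and gave positions and exon lengths.

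The members and lists were chosen with earlier results of these data known. Named are members with fixed roles, those on chromosome 11, the 2 highest and 2 lowest per kb, up to 3 extreme calls in each direction (a mean of at least 50 counts and no overlap), and all calls where there were 5 or fewer. Other genes were named after their values were seen. On data simulated for PARP1-KO against WT with DMSO (28261 genes), 192 of 200 changed genes and 1 unchanged gene were called. The simulation gave all genes the same dispersion and changed 2-fold only genes with a mean of at least 50 counts. It checks that the code runs as meant and does not measure power or error at the spread of the real libraries. Replicate pairs differed beyond sampling noise (chi-square per degree of freedom 2.33 to 57.9 over 60 pairs), so each library was counted once. Total counts limit the precision for genes with few counts. Alternatives were DESeq2 1.42.0, RLE scaling, other filters and thresholds, fewer libraries, the legacy option off, length and GC offsets (splines with 5 degrees of freedom), the prefix of the library name or the replicate number as a factor, a DMSO comparator, each library left out in turn and, added after seeing the data, other windows for neighbours, lists without 1 of 2 WT libraries, and the protein-coding genes with a mean of at least 50 counts as background.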

Additional observations from a re-analysis of the deposited data

Results flagged for a closer look

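In 23 of 350 sets of 4 libraries (34 named members and the summed share, in each of 10 groups), 1 library lay far from the other 3 by Dixon's criterion. Chance gives about 1 in 20 such sets. They fell in 14 libraries, 5 of them in OL9-119-treated WT replicate 2 and 3 in Tpc-treated WT replicate 2. 

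In DMSO-treated PARP1-KO replicate 3, MRPL41 was at 24.47 CPM (46.61 to 49.13 in the others). In DMSO-treated PARP1-KO replicate 1, MRPS18C was at 25.23 CPM (27.99 to 28.43 in the others). In OL9-119-treated PARP1-KO replicate 4, MRPL15 was at 45.92 CPM (49.85 to 50.63 in the others). In OL9-119-treated PARP1-KO replicate 1, MRPL27 was at 26.68 CPM (30.07 to 30.77 in the others) and MRPL58 was at 35.37 CPM (48.34 to 49.65 in the others). In Tpc-treated PARP1-KO replicate 1, MRPS18C was at 36.53 CPM (29.37 to 29.98 in the others). In combination-treated PARP1-KO replicate 3, MRPL13 was at 77.26 CPM (58.35 to 60.84 in the others) and MRPL3 was at 182.5 CPM (140.6 to 146.6 in the others). In DMSO-treated WT replicate 3, MRPL20 was at 96.37 CPM (57.62 to 59.71 in the others) and MRPS24 was at 3.835 CPM (0 in all 3 others).

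In DMSO-treated WT replicate 4, MRPL58 was at 29.43 CPM (45.06 to 47.58 in the others). In OL9-119-treated WT replicate 2, MRPL15 was at 91.86 CPM (62.26 to 65.98 in the others), MRPL21 was at 85.9 CPM (53.18 to 58.63 in the others), MRPL27 was at 72.61 CPM (36.06 to 38.1 in the others), MRPL51 was at 147.1 CPM (99.35 to 106.9 in the others) and MRPS36 was at 30.34 CPM (22.35 to 23.56 in the others). In Tpc-treated WT replicate 2, MRPL16 was at 92.61 CPM (55.85 to 57.77 in the others), MRPL3 was at 185.9 CPM (161.8 to 164.9 in the others) and MRPS18C was at 69.77 CPM (35.46 to 39.45 in the others). In Tpc-treated WT replicate 4, MRPS18B was at 54.54 CPM (61.94 to 62.31 in the others). In combination-treated WT replicate 1, MRPL13 was at 64.88 CPM (37.85 to 41.46 in the others). In combination-treated WT replicate 2, MRPS18C was at 50.95 CPM (32.13 to 33.12 in the others). In untreated WT replicate 1, MRPL27 was at 102.1 CPM (55.95 to 62.34 in the others).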

How the results depend on the processing

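None of the 62 values of single named members changed sign under the alternatives run. Many were named as extreme calls without overlap, so a kept sign was likely in advance. Over the planned settings they were graded weaker 59 times and the same 511 times, and with 1 library left out 144 and 352 times. Among the planned settings, fits of only the libraries compared gave 23 weaker and 39 the same, and the DMSO comparator 8 and 4. Counts and medians also moved. Between genotypes under the combination 3 members were higher and 4 lower, but 4 and 3 without WT replicate 2, and 5 and 4 with only the libraries compared, and the median turned positive without that library (0.0048). Under OL9-119 the median was 0.04 without WT replicate 2. The median of DMSO against untreated WT cells was above 0 in 8 alternatives, with 0 members called in each. At a threshold of 0.05 in place of 0.01, 34 members were called between untreated genotypes, and 17, 18 and 13 under Tpc, OL9-119 and the combination, against 18.3%, 13.9%, 15% and 12.4% of all genes. In WT cells it was 1 with Tpc, 10 with OL9-119 and 14 with the combination (2.05%, 2.82% and 8.56% of all genes). With only the libraries compared in the fit, the genotype comparisons gave 8 members with DMSO and 16 with OL9-119, and the WT responses to OL9-119 and the combination gave 0 and 0. Length and GC offsets gave 14 (OL9-119) and 13 (combination) between genotypes and 7 for OL9-119 in WT cells. For OL9-119 in WT cells, no filter gave 9, the legacy option off 7, DESeq2 9 and the DMSO comparator 2, and for the combination the DMSO comparator gave 5. For Tpc in WT cells DESeq2 and filterByExpr each gave 1. The cause was not tested. Here and in the paragraphs below, counts other than those at the threshold of 0.05 stand without the share of all genes called in the same fit. A change in the members and a change in overall calling cannot be told apart from these counts.

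With 1 library left out, 10 to 24 members were called between untreated genotypes (10 without WT replicate 1, 11, 12 and 11 without PARP1-KO replicates 1, 3 and 4), and 13 to 24 under DMSO (13 without WT replicate 3). Under Tpc this was 5 to 9 (5 and 6 without PARP1-KO replicates 1 and 3, 6 without WT replicate 1). Under OL9-119 it was 3 to 7 (3, 5, 4 and 4 without PARP1-KO replicates 1 to 4, 5 and 4 without WT replicates 1 and 2), and under the combination 3 to 7 (3, 4 and 4 without PARP1-KO replicates 2, 3 and 4). The WT response to Tpc gave 0 to 1 (1 without untreated replicate 4). That to OL9-119 gave 0 to 11 (1, 0 and 11 without untreated replicates 1, 3 and 4, 9 without treated replicate 2, and 1 without each other treated replicate). That to the combination gave 2 to 10 (2 without untreated replicate 1, 5 without treated replicate 1).

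The deviations of same-numbered libraries of a genotype from their group means had a mean correlation of 0.0517 over 80 pairs (-0.155 to 0.368), against -0.0121 for different numbers, which did not meet the bar of over 0.1 in every pair, so the numbers were not taken as pairs. In 6 of 8 sets of same-numbered libraries of a genotype all 5 also share the prefix of the library name, so the number and the prefix cannot be told apart there. With the replicate number as a block, 16 members were called between untreated genotypes, and 21, 10, 8 and 7 under DMSO, Tpc, OL9-119 and the combination. The WT responses gave 5 for OL9-119 and 9 for the combination. The library name prefix as a factor gave 19, 20, 10, 10 and 6 between genotypes.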
